A study of Mus musculus with 6 samples.

Results

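A set of 10 genes that respond to cyclic AMP, most of them immediate early genes, was followed in the intestine of newborn C57BL/6 mice after 5 days with NECA or with DMSO. The members were chosen by gene name and were Fos, Fosb, Junb, Egr1, Nr4a1, Crem, Sik1, Pde4b, Pde4d and Atf3. Each name had a single row among the 54532 genes of the deposited files, and all 10 were among the 15847 genes that passed the filter on low counts. NECA, short for N-ethylcarboxamidoadenosine, is a non-selective agonist of adenosine receptors, and DMSO, a solvent, was given to the controls. Both groups were newborn C57BL/6 intestine, and they differed in the labels by NECA or DMSO alone, with 3 libraries each. The labels give no bowel segment, no time from the last dose to sampling and no word on whether pups or excised tissue received the drug. Separate animals are not stated either, so p-values measure the spread between these libraries, which may be technical.

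Cyclic AMP is made by adenylyl cyclases, which adenosine receptors coupled to the G protein Gs (Adora2a and Adora2b) switch on and those coupled to Gi (Adora1 and Adora3) restrain. It frees the catalytic subunit of protein kinase A (PKA), which phosphorylates the transcription factor CREB at cAMP response elements, and the first genes transcribed include Fos, Nr4a1 and the brakes on the signal, Crem, Sik1 and the PDE4 phosphodiesterases. Transcripts of immediate early genes are short-lived, and the same genes also respond to growth factors, cell stress and the handling of tissue.

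None of the 10 genes was called different between NECA and DMSO intestine. The edgeR quasi-likelihood test with Benjamini-Hochberg adjustment over all genes called 0 members, against a background of 0% of the tested genes, and 0 members had an unadjusted p under 0.05, which 868 (5.48%) of all tested genes had. DESeq2 and limma with library weights also called 0 members, and over all genes they called 11 and 0. In all 10 genes the NECA and DMSO libraries overlapped in normalised level. Over all tested genes the groups did not overlap in 13.7%, and with 10 members a count of 0 is not far from that share. Levels on the NECA side were higher for 3 members and lower for 7, with a median log2 fold change of -0.090, beside -0.0080 over all tested genes, whose middle 50% lay between -0.23 and 0.20. The 95% intervals of the single genes reached from 0.37 to 1.25 on the log2 scale to either side of the estimate, so that the precision differed widely among them.

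The promoter windows of the members were searched for the element that CREB binds. RefSeq windows on build GRCm38.p6, from 250 bases before to 50 bases after a transcript start, were at hand for 7 of the 10 genes, 10 windows in all: Fos, Fosb, Junb, Nr4a1, Pde4b, Pde4d and Atf3. Those of Fos, Fosb and Junb lay within 100 bases of the start of the GENCODE gene. The other genes' windows belonged to transcript starts inside the gene, 12.6 kb past its start for Nr4a1, 34.7 kb for Atf3, 204 kb for Pde4d and 334 to 502 kb for Pde4b, and the outermost starts of these genes were not searched. Crem, Egr1 and Sik1 were not matched. The full cAMP response element, TGACGTCA, was in none of the 10 windows and in 1.79% of the 32851 promoter windows in the table. Its core site, TGACG read on either strand and contained in the full element, was in 6 of the 10 windows, 1 window each of Fos, Fosb, Junb, Nr4a1, Pde4b and Atf3, and in 20.8% of all windows. The serum response element (CArG box), searched on both strands, was in none of the members' windows and in 1.63% of all. Bases further than 250 before a start were not searched, nor was any window of Egr1, so elements there would be missed. These matches are letters in a window and say nothing of binding. The windows of Fos (chr12:85473640-85473939, plus strand), Nr4a1 (chr15:101266596-101266895, plus strand) and Atf3 (chr1:191183284-191183583, minus strand) are shown because the first pair hold more than 1 core site and the third has its core site closest to the transcript start; capitals mark the core sites, as TGACG or, on the other strand, CGTCA.
Fos: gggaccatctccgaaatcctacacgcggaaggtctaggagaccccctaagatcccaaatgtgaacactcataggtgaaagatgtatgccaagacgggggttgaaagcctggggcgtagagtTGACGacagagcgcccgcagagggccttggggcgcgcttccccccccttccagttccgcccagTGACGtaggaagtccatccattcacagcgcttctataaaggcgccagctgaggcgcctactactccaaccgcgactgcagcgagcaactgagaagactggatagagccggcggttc
Nr4a1: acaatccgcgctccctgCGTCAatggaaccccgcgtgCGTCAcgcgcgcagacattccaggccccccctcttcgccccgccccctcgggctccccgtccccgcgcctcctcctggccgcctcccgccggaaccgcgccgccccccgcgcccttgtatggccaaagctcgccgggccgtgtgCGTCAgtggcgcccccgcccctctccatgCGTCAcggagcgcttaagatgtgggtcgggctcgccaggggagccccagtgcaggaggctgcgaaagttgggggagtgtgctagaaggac
Atf3: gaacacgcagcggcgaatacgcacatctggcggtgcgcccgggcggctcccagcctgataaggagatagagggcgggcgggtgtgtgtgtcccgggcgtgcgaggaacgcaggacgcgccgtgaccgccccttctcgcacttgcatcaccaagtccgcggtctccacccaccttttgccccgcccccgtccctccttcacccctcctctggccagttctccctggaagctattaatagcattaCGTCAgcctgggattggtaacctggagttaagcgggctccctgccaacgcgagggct

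Counted from the transcript start of the window at position 0, the core sites of Fos began at positions -129 and -66. Those of Nr4a1 began at -233, -213, -69 and -40, and only 0.231% of all windows held 4 or more. The single core site of Atf3 began at -7, that of Fosb at -60, that of Junb at -106 and that of Pde4b at -34, in 1 of its 4 windows. The single window of Pde4d held none.

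The libraries held 15531996 to 18065078 counts, with 21564 to 21946 genes detected. All 11 epithelial markers had counts in every library and together took 1.27% to 1.47% of counts, but single markers went far apart in NECA replicate 2: Fabp1 had 23.1 CPM there against 2096 to 2719 CPM in the other libraries, Fabp2 603 against 3318 to 4968 CPM, and Krt19 1424 against 363 to 626 CPM. NECA replicate 2 stood apart, with a median r across genes of 0.944 to its fellow libraries, against 0.971 to 0.986 for the rest and 1.31% of counts from mitochondrial genes against 2.80% to 8.39%. Markers of bowel segment had median differences of opposite direction for ileal and proximal genes, though edgeR called none after adjustment. All 7 ileal genes had higher estimates in NECA (median log2 fold change 1.92), at 0.0350%, 0.320% and 0.0680% of counts in NECA libraries and 0.0252%, 0.0261% and 0.0586% in DMSO libraries. These ileal shares overlapped, with NECA replicate 1 below DMSO replicate 3, and NECA replicate 2 was far above the rest. Among 7 genes of the jejunum and proximal bowel, 6 had lower levels in NECA (median -1.02), at 0.0348%, 0.0164% and 0.0286% of counts in NECA libraries and 0.0512%, 0.0393% and 0.0356% in DMSO libraries, which did not overlap. The part of segment in the values below was not tested. DMSO replicate 2 had the highest mitochondrial share, and its 10 smooth muscle markers took 0.684% of counts, against 0.278% to 0.370% in the other 5 libraries. In bulk tissue, fewer cells of a type and less RNA per cell cannot be told apart. The 10 genes summed to 151.7, 163.9 and 130.6 CPM (a count scaled to the library total, here before TMM normalisation) in the NECA libraries and 150.2, 179.8 and 141.4 in the DMSO libraries.

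Fos and Junb encode AP-1 subunits, which pair through leucine zippers and bind DNA as dimers, and Fosb encodes a close relative of Fos. Fos (ENSMUSG00000021250, chromosome 12, 85473890 to 85477273 on GRCm38) was at 14.99, 9.92 and 11.4 CPM, here and below after TMM normalisation, in NECA replicates 1 to 3, against 8.87, 15.7 and 11.4 CPM in DMSO replicates 1 to 3. Each group thus held 1 high library, NECA replicate 1 and DMSO replicate 2, and the means of 12.1 ± 2.61 and 12.01 ± 3.46 CPM (SD, n = 3 each) lay within that spread. The fold change, NECA over DMSO, was 1.01 with a 95% interval of 0.658 to 1.54 (log2 0.0096, SE 0.26; adjusted p = 0.993, edgeR quasi-likelihood test). Its direction changed without NECA replicate 1 (-0.17), without DMSO replicate 1 (-0.18) and without DMSO replicate 3 (-0.020).

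Fosb (ENSMUSG00000003545, chromosome 7, 19302696 to 19310051) had the fewest counts of the 10. It had 33, 12 and 14 counts in the NECA libraries and 23, 13 and 13 counts in the DMSO libraries. NECA replicate 1, one of the higher libraries for Fos, was the highest here. The fold was 1.17 with the widest interval of the 10, 0.492 to 2.77, and without NECA replicate 1 the log2 fold change was -0.50. At its mean count, counting error alone gives a coefficient of variation (CV) of 23.6%, against 3.11% to 9.33% for the other members.

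Junb (ENSMUSG00000052837, chromosome 8, 84974484 to 84978718), the most abundant member, was at 64.9, 57.7 and 53.7 CPM in NECA libraries and 60.6, 76.2 and 56.2 CPM in DMSO libraries. DMSO replicate 2 was the highest and the other 5 libraries lay between 53.7 and 64.9 CPM. Its fold of 0.913 had the narrowest interval, 0.705 to 1.18, and the log2 fold change was -0.13 (SE 0.16), turning to 0.0085 without DMSO replicate 2. Junb shares 173 exonic bases with Prdx2 on the opposite strand, which had 3065 to 4202 counts per library, and the strand setting of the counting is not given in the sources used here, so reads of the shared stretch may be misassigned.

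**Figure D1:**
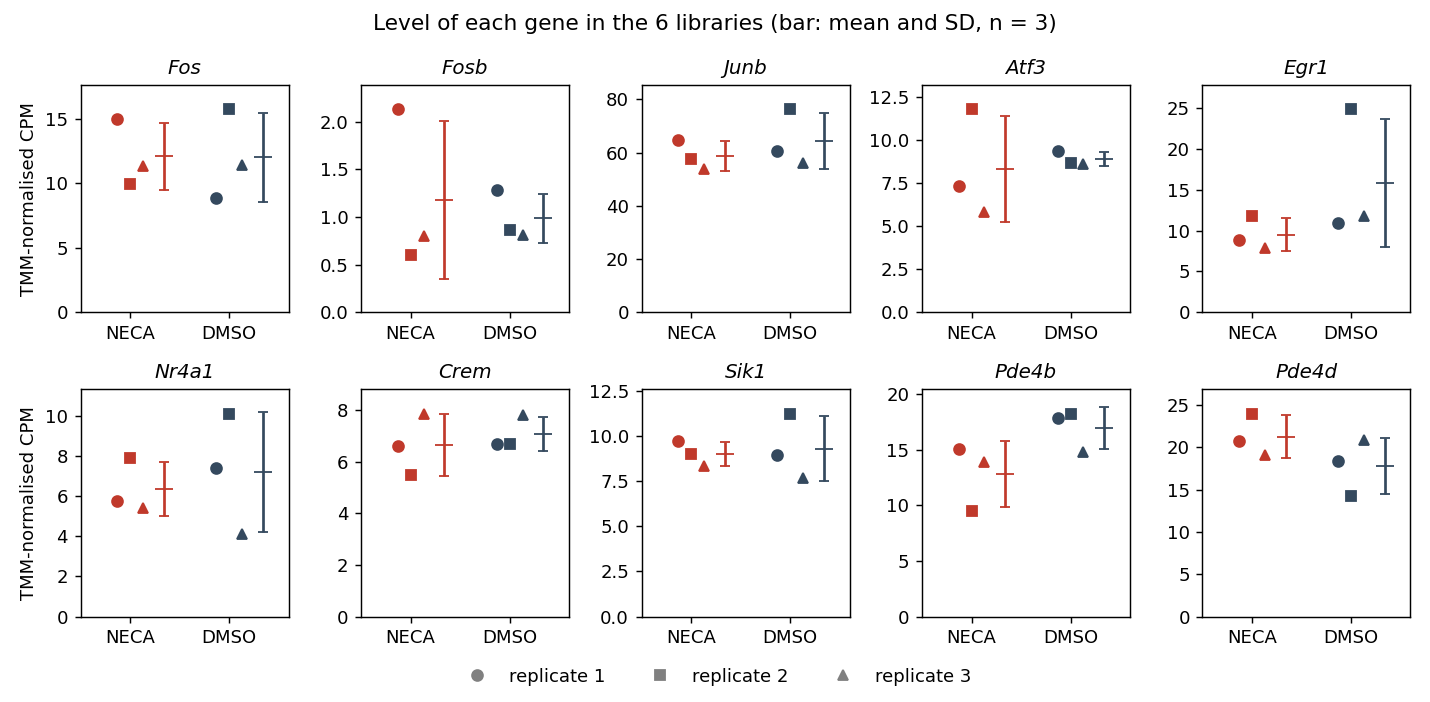
TMM-normalised CPM (vertical axis, from 0) of the 10 genes in the NECA and DMSO libraries; symbols mark replicates 1 to 3 and the bars give the mean ± SD of 3 libraries. The groups overlap in every panel, and DMSO replicate 2 is highest in 6 of the 10 genes. The share of all tested genes highest in that library was not counted.

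Atf3 encodes a stress-induced member of the ATF/CREB family that can act as a repressor. Atf3 (ENSMUSG00000026628, chromosome 1, 191170296 to 191218039) had 7.37, 11.8 and 5.86 CPM in NECA intestine and 9.37, 8.70 and 8.63 CPM in the DMSO libraries. The DMSO libraries were nearly alike, with a CV of 4.63%, and the NECA libraries lay on both sides of them, with a CV of 37.1%. NECA replicate 2, the library that stands apart, was the high one. The log2 fold change was -0.090 (SE 0.28; adjusted p = 0.927, edgeR quasi-likelihood test). It was -0.43 without NECA replicate 2 (adjusted p = 0.848, edgeR) and 0.11 without NECA replicate 3, so the size and the direction both rested on single NECA libraries.

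Egr1 encodes a zinc finger transcription factor driven by serum response factor as well as by cAMP. It showed the largest difference of the 10, and 1 vehicle library carried much of it. Egr1 (ENSMUSG00000038418, chromosome 18, 34859823 to 34864984) was at 8.79, 11.81 and 7.92 CPM in NECA libraries and 10.9, 24.8 and 11.75 CPM in DMSO libraries. DMSO replicate 2 was far above the other 5 libraries, and NECA replicate 2 lay just above DMSO replicates 1 and 3. The fold was 0.603 with an interval of 0.344 to 1.05 (log2 -0.73, SE 0.35; unadjusted p = 0.0703, adjusted p = 0.738, edgeR quasi-likelihood test). Without DMSO replicate 2, the library rich in smooth muscle and mitochondrial transcripts, the log2 fold change was -0.25 (adjusted p = 0.940, edgeR), and without NECA replicate 2 it was -0.91 (adjusted p = 0.848). Over the 12 alternatives it ran from -0.95 to -0.25, always lower in NECA. The part of smooth muscle content in the difference was not tested.

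Nr4a1 encodes an orphan nuclear receptor whose transcript is a classic marker of acute CREB activity. Nr4a1 (ENSMUSG00000023034, chromosome 15, 101254269 to 101274795) was at 5.75, 7.88 and 5.397 CPM in NECA libraries and 7.37, 10.1 and 4.13 CPM in DMSO libraries. Both extremes were DMSO libraries, replicate 2 at the top and replicate 3 at the bottom, and the 3 NECA libraries fell between them. The fold was 0.883, with an interval of 0.505 to 1.54. Its log2 value was -0.18 (SE 0.35), turned to 0.14 without DMSO replicate 2 and was -0.46 without DMSO replicate 3.

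Among the brakes on the signal, Crem encodes CREB-like activators and repressors, including the inducible repressor ICER, which starts from an internal promoter and which a count per gene cannot separate from the rest. Crem (ENSMUSG00000063889, chromosome 18, 3266048 to 3337748) was at 6.59, 5.48 and 7.87 CPM in NECA libraries and 6.70, 6.69 and 7.815 CPM in DMSO libraries. The highest and the lowest library were both NECA libraries, and 2 of the DMSO libraries were nearly equal. The fold was 0.940, with an interval of 0.657 to 1.35. An opposite-strand gene that shares exonic bases with it, Gm6225, had 1 to 5 counts.

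Sik1, whose product is a kinase that keeps the CREB coactivators CRTC out of the nucleus, varied least among the NECA libraries, with a CV of 7.61%, which is below the 8.05% that counting error alone gives at its mean count. Sik1 (ENSMUSG00000024042, chromosome 17, 31844250 to 31855804) was at 9.69, 8.97 and 8.32 CPM in NECA libraries and 8.93, 11.2 and 7.69 CPM in DMSO libraries. The NECA libraries lay within the DMSO range. The fold was 0.969 with an interval of 0.692 to 1.36 (log2 -0.045, SE 0.21). The sign turned without DMSO replicate 2 (0.11), without NECA replicate 3 (0.0093) and with library weights (0.018).

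Pde4b and Pde4d encode enzymes that hydrolyse cyclic AMP, and their estimates had opposite signs. Pde4b (ENSMUSG00000028525, chromosome 4, 102087543 to 102607259) was at 15.1, 9.47 and 13.95 CPM in NECA libraries, against 17.9, 18.3 and 14.8 CPM in DMSO libraries. Only NECA replicate 1 reached into the DMSO range, by passing DMSO replicate 3. The fold was 0.756 with an interval of 0.532 to 1.07 (log2 -0.40, SE 0.22; unadjusted p = 0.102, adjusted p = 0.738, edgeR quasi-likelihood test). Without NECA replicate 2, where the gene was lowest, the log2 fold change was -0.22 (adjusted p = 0.857, edgeR), and over the 12 alternatives it ran from -0.53 to -0.22.

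Pde4d (ENSMUSG00000021699, chromosome 13, 108449948 to 109953461) was at 20.7, 23.98 and 19.1 CPM in NECA libraries, against 18.4, 14.2 and 20.8 CPM in DMSO libraries. NECA replicate 2 was the highest and DMSO replicate 2 the lowest, whereas for Pde4b DMSO replicate 2 was the highest and NECA replicate 2 the lowest. The fold was 1.19 with an interval of 0.875 to 1.63 (log2 0.26, SE 0.19; adjusted p = 0.739, edgeR quasi-likelihood test). Leaving out NECA replicate 2 gave 0.16, DMSO replicate 2 gave 0.12 and DMSO replicate 3 gave 0.39, and library weights gave 0.092. Per length, as FPKM, Pde4d exceeded Pde4b in all 3 NECA libraries (1.74, 1.98 and 1.58 FPKM against 1.44, 0.887 and 1.32 FPKM for Pde4b). In DMSO libraries Pde4d was at 1.515, 1.16 and 1.72 FPKM and Pde4b at 1.675, 1.695 and 1.39 FPKM, so that Pde4d was the higher of the pair in DMSO replicate 3 only; this order was noticed in the values and was not tested.

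**Figure D2:**
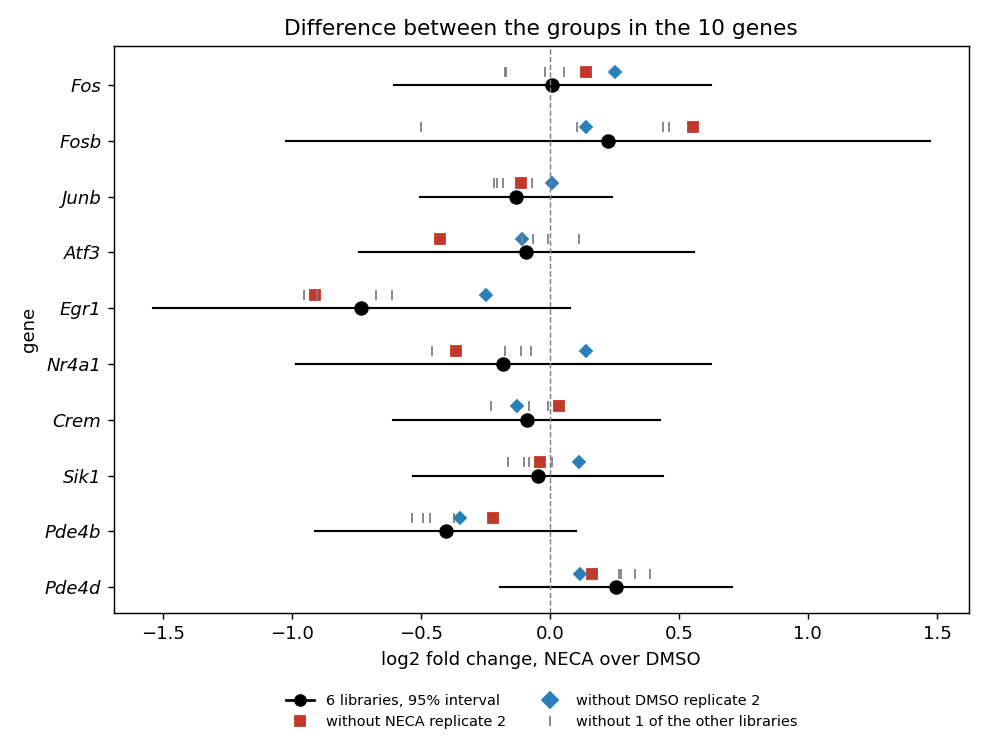
Log2 fold change, NECA over DMSO (horizontal axis), of the 10 genes (vertical axis): black points and lines give the estimate from 6 libraries with its 95% interval, and the smaller marks above them the estimates with 1 library left out. Every interval crosses 0, and Egr1 moves from -0.73 to -0.25 without DMSO replicate 2.

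Compared per length, the members covered a wide range of levels. Mean FPKM in NECA and DMSO libraries was 25.5 ± 2.65 and 27.6 ± 4.32 for Junb, 5.14 ± 1.16 and 5.04 ± 1.42 for Fos, and 3.86 ± 1.405 and 4.08 ± 0.201 for Atf3 (SD, n = 3 each). Next came Egr1 (2.11 ± 0.440 in NECA, 3.475 ± 1.69 in DMSO), Sik1 (1.99 ± 0.164 and 2.03 ± 0.381) and Nr4a1 (1.80 ± 0.368 and 2.02 ± 0.829). At the low end, Fosb had 0.189 ± 0.135 and 0.156 ± 0.0411 FPKM. The order was the same in both groups except that Pde4d stood before Pde4b in NECA libraries and after it in DMSO libraries. In NECA libraries the ranges of neighbours did not overlap at 4 steps: below Junb, below Atf3, below Pde4d and above Fosb. In DMSO libraries only Junb at the top and Fosb at the bottom were set off in this way. By mean FPKM over all libraries, Junb lay at the 86.5th percentile of the tested genes, Fos at the 53.8th and Fosb at the 2.38th.

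**Figure D3:**
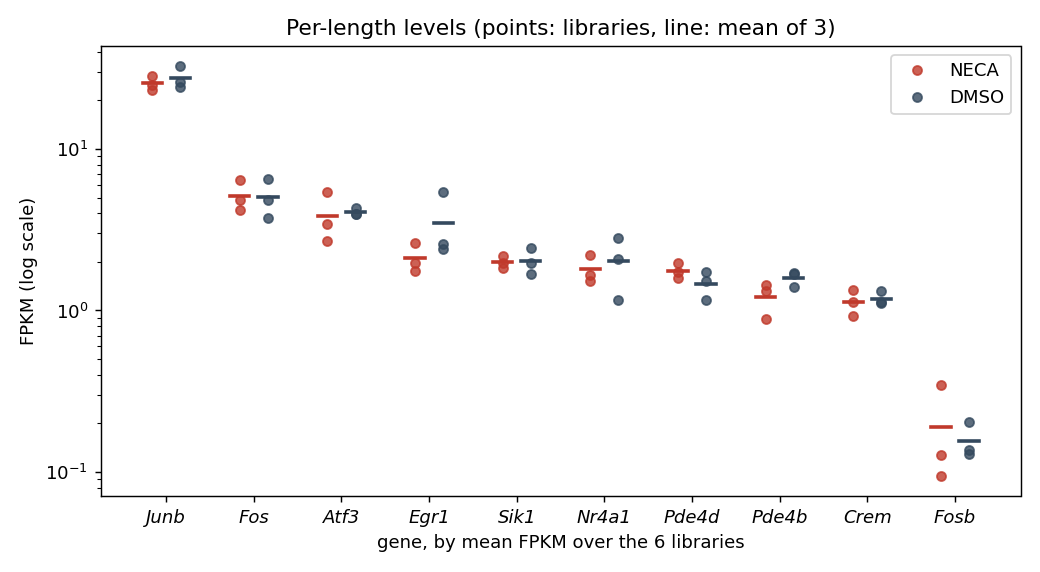
FPKM on a log scale (vertical axis) of the 10 genes, ordered by their mean over the 6 libraries (horizontal axis); points are libraries and lines the means of 3. Junb is set off at the top and Fosb at the bottom, and NECA and DMSO values overlap in every gene.

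The members did not all vary together among libraries. Over the 6 libraries, the 45 pairs of members had Pearson correlations of log2 CPM from -0.808 to 0.935. Their median was 0.138, and 27 were positive. Junb, Egr1, Nr4a1 and Sik1 had correlations of 0.672 to 0.935 among themselves, and Pde4d had -0.727 to -0.505 with them. These genes were picked from the values, and the spread over pairs of all tested genes was not computed. DMSO replicate 2 held the highest level of 6 members, Fos, Junb, Egr1, Nr4a1, Sik1 and Pde4b, and the lowest of Pde4d. The share of all tested genes that were highest in DMSO replicate 2 was not counted. In that library 7 of the 10 members lay above their own mean over libraries, and the median deviation was 0.314 on the log2 scale, against -0.156 to 0.0687 in the other 5 libraries. NECA replicate 3 was the opposite, with 9 of 10 members below their mean and the lowest level of Junb, Egr1 and Atf3. Without DMSO replicate 2, the median log2 fold change of the 10 genes was 0.061 in place of -0.090. Smooth muscle transcripts and the mitochondrial share were highest in the same library, and their part in the members' levels was not tested. The median biological CV of the members, as edgeR estimates it, was 23.7%, beside 23.4% over all tested genes. That estimate is drawn towards the trend over all genes, so some of the likeness is built in. Within DMSO, Egr1 and Nr4a1 had CVs of 49.4% and 41.6%, where counting error gives 6.89% and 9.33%.

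**Figure D4:**
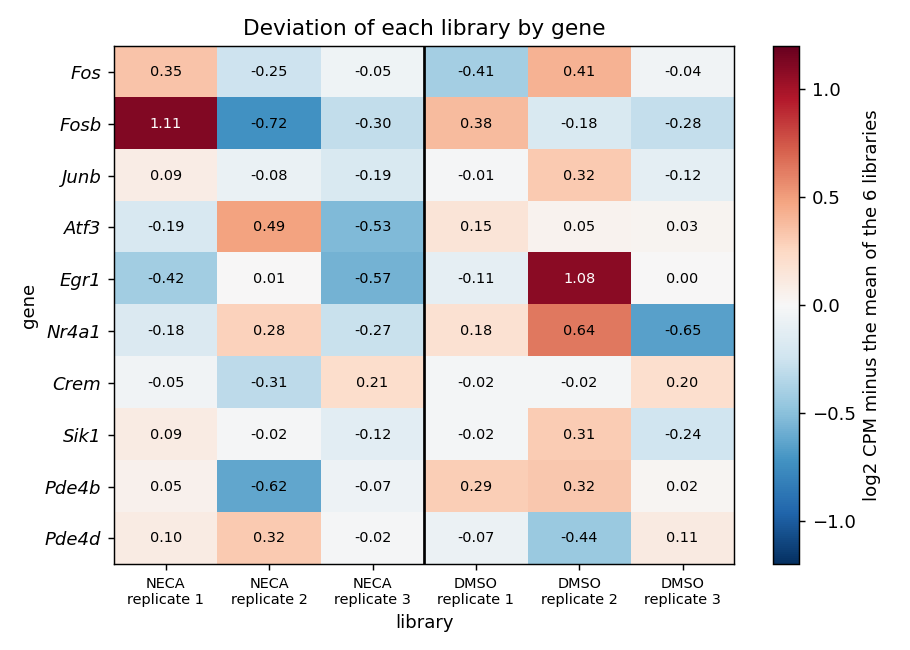
Log2 CPM of each library minus the gene's mean over the 6 libraries (colour and printed value), with genes down the page and libraries across it, NECA left of the line and DMSO right. The DMSO replicate 2 column is positive for 7 of the 10 genes, with Egr1 at 1.08, and the NECA replicate 3 column is negative for 9.

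The tested genes outside the set whose profile over the 6 libraries was most like that of Fos were Trpv4, Nyap1, Trf, Car14 and Gm6712, with Pearson correlations of log2 CPM of 0.983, 0.981, 0.974, 0.972 and 0.971 as a description. With 6 libraries and 15763 genes compared, 21 genes had a correlation over 0.95. Among the other 9 members the highest was that of Junb, 0.687.

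Related genes were read from lists of adenosine receptors, makers, effectors and targets of cyclic AMP, and other phosphodiesterases. Other AP-1 subunits and other serum and growth factor immediate early genes were listed too, so the sums below are not of the cyclic AMP pathway alone. Over 8 lists with 120 tested genes outside the 10, edgeR's quasi-likelihood test called 0 genes after adjustment (smallest adjusted p = 0.738), with 51 higher and 69 lower in NECA and a median log2 fold change of -0.046. An unadjusted p under 0.05 was reached by 11 of the 120, 4 higher and 7 lower in NECA, where the background is 5.48% of tested genes. In each list the leading genes are those with the smallest unadjusted p, and values in parentheses are log2 fold changes.

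Among 4 adenosine receptors, Adora2b, the low-affinity receptor coupled to Gs, was at 36.8, 3.94 and 68.6 CPM in NECA libraries and 51.2, 63.6 and 74.6 CPM in DMSO libraries, with NECA replicate 2 far below the rest. Its log2 fold change was -0.79 (SE 0.76), and it was -0.26 without NECA replicate 2, -1.64 without NECA replicate 3 and -1.35 with a replicate block. Adora2a, also coupled to Gs, had 4.14, 4.39 and 4.59 CPM in NECA and 5.19, 4.62 and 4.001 CPM in DMSO (-0.074, SE 0.23). The Gi-coupled Adora1 had a value of 0.29 (SE 0.39), and Adora3, also Gi-coupled, one of -0.86 (SE 0.67) on 2 to 15 counts per library, which ran from -1.49 without NECA replicate 3 to -0.38 without NECA replicate 2.

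Of 14 tested cyclase and G protein genes, 6 were higher and 8 lower in NECA. Adcy1, a calcium-stimulated cyclase, was at 9.08 ± 0.392 CPM in NECA and 15.4 ± 5.10 CPM in DMSO (-0.77, SE 0.26), and Gnas, which encodes the Gs alpha subunit, at 60.9 ± 10.6 and 43.6 ± 5.46 CPM (0.48, SE 0.17; n = 3 each). In the PKA and EPAC list 7 of 17 were higher, and its leading genes were the PKA inhibitor Pkib (-0.96, SE 0.36) and the catalytic subunit Prkacb (-0.34, SE 0.16). CREB and its coactivators had 3 of 10 higher, with a median of -0.17 and the coactivators Crebbp (-0.40, SE 0.18) and Crtc2 (-0.44, SE 0.22) in the lead. The other phosphodiesterases had 5 of 16 higher, led by Pde1c (-0.98, SE 0.32), a calcium-stimulated enzyme, and Pde7a (-0.43, SE 0.19), specific for cyclic AMP. Without DMSO replicate 2 the values of these named genes were nearer 0, except that of Pkib, which was -1.01. Adcy1 was at -0.50, Gnas at 0.38, Prkacb at -0.18 and Crebbp at -0.24. Crtc2 was at -0.19, Pde1c at -0.70 and Pde7a at -0.285.

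Other AP-1 subunits had 8 of 13 genes higher, led by Fosl1 (log2 fold change 1.0, SE 0.34), a relative of Fos with 21, 36 and 26 counts in NECA and 16, 9 and 13 in DMSO, and Maff (0.24, SE 0.14), which encodes a small Maf protein and was at 0.15 without NECA replicate 2. Of the other immediate early genes 14 of 26 were higher, with a median of 0.011. Socs3, a feedback inhibitor of cytokine receptors, had 39.3, 39.1 and 35.8 CPM in NECA and 26.1, 32.4 and 23.3 CPM in DMSO (0.48, SE 0.16), while the transcription factor gene Klf2 was at 15.9, 14.3 and 13.8 CPM in NECA and 23.0, 19.7 and 17.4 CPM in DMSO (-0.45, SE 0.17). In both genes the groups did not overlap, as in 13.7% of all tested genes, and neither passed adjustment (adjusted p = 0.738, edgeR quasi-likelihood test).

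Other CREB target genes had 9 of 23 higher and a median of -0.039. Areg, which encodes the EGF receptor ligand amphiregulin, was at 11.9, 7.08 and 10.8 CPM in NECA and 19.5, 19.4 and 23.8 CPM in DMSO (-1.08, SE 0.23; adjusted p = 0.738, edgeR quasi-likelihood test), the lowest unadjusted p in the 8 lists. Its groups did not overlap, and over the alternatives its adjusted p was 0.0780 to 0.940. Rgs1, a regulator of G protein signalling in immune cells, followed (-0.83, SE 0.29). The 9 lymphoid markers had lower summed levels as well, at 0.00161% to 0.00282% of counts in NECA libraries and 0.00328% to 0.00724% in DMSO libraries, and their part in the Rgs1 value was not tested. Of the 12 heat shock genes, which respond to tissue handling, 4 were higher and 8 lower in NECA, led by Hsph1 (0.34, SE 0.21) and Hsp90aa1 (0.39, SE 0.25), both highest in NECA replicate 2 and at 0.075 and 0.099 without it.

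**Figure D5:**
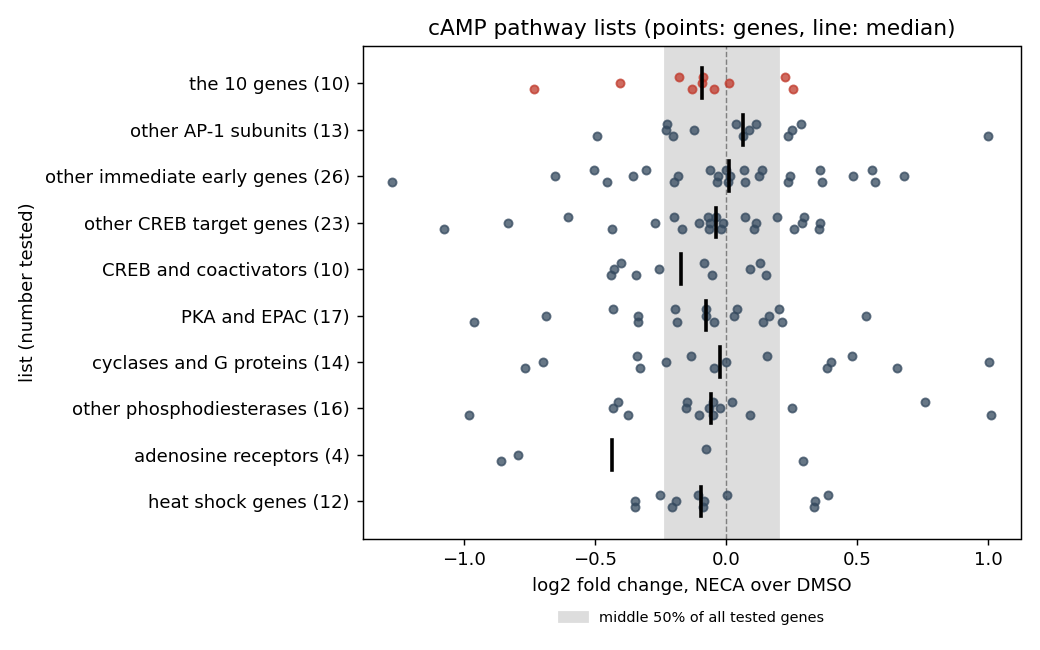
Log2 fold change, NECA over DMSO (horizontal axis), of the tested genes of each list (rows, with their number); black lines are medians and the grey band holds the middle 50% of all tested genes. The medians of the lists lie inside the band except that of the 4 adenosine receptors, and the 10 genes are in red.

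Genes can also be grouped by promoter in place of name. Of 396 tested genes with the full TGACGTCA element in a promoter window, 198 were higher and 198 lower in NECA, with a median log2 fold change of -0.00052 and a middle 50% from -0.22 to 0.16. Over the 11642 tested genes with any window the median was -0.0072 and the middle 50% ran from -0.22 to 0.20. Unadjusted p-values under 0.05 were found in 4.55% of the genes with the element and 5.16% of those with any window, and 0 were called in either after adjustment with edgeR.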

How the data were processed

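For each library the authors deposited a table of whole-number counts per gene, not normalized, and FPKM values (fragments scaled by gene length and library), per the file headers. FPKM was checked against counts for genes above a minimum count both in the library and in NECA replicate 1. There each deposited FPKM equalled its count over a constant of the gene and a constant of the library, within a relative 1.5e-08. That library constant was not the total: for NECA replicate 2 relative to NECA replicate 1 it was 1.32, beside 1.135 for the totals and 1.296 for TMM effective sizes. Per the submitters' processing notes, HISAT, StringTie and edgeR and the builds mm10 and GRCm38 were used; versions, strand setting and treatment of multiply mapped reads: not given in the sources used here. Per the labels' protocols, libraries were made by SMARTer amplification without stated molecular identifiers, so reads are not independent molecules.

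Counts were filtered with filterByExpr (minimum count 10, minimum total 15), scaled by TMM and tested with edgeR 4.0.16 (glmQLFit and glmQLFTest, R 4.3.3), NECA against DMSO, 3 libraries each, without covariates. Two-sided p-values were adjusted by Benjamini-Hochberg over all tested genes, with a threshold of 0.05. Standard errors were the log2 fold change over the root of F, and 95% intervals used the test's degrees of freedom. FPKM served only to compare levels between genes. The procedure was also run on simulated counts with known fold changes. How many of these it recovered is not given here, so the run says nothing of the power behind the results above. Promoter windows were RefSeq's on GRCm38.p6, and gene coordinates GENCODE M21's on GRCm38.

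The members and lists were chosen with earlier results of these data known. All members are named, with the 2 genes of smallest p of each list, all adenosine receptors and the 5 genes most correlated with Fos. The alternatives were DESeq2 1.42.0, DESeq2 size factors in edgeR, no filter, a mean of at least 1 CPM, a replicate block, limma 3.58.1 voom with quality weights, and each library left out.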

Additional observations from a re-analysis of the deposited data

How the results depend on the processing

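Members called after adjustment numbered 0 under all 12 alternatives, with 0 or 1 at an unadjusted p under 0.05, which was Egr1 (no filter, the replicate block and without NECA replicate 2, DMSO replicate 1 or DMSO replicate 3) or Atf3 (library weights). Over all genes DESeq2 called 11 and edgeR without the filter 2, against 0 in the other alternatives; the cause was not tested. The members' median log2 fold change ran from -0.155 to 0.061 with 1 library left out and was -0.109 with the replicate block.

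Egr1, Pde4b and Pde4d kept their direction in all 12 alternatives. Of 120 refits of single members 12 changed sign, all of them uncalled. Without NECA replicate 1 these were Fos (-0.17) and Fosb (-0.50), without NECA replicate 2 Crem (0.037), and without NECA replicate 3 Sik1 (0.0093) and Atf3 (0.11). Without DMSO replicate 1 it was Fos (-0.18), without DMSO replicate 2 Junb (0.0085), Nr4a1 (0.14) and Sik1 (0.11), and without DMSO replicate 3 Fos (-0.020). With library weights they were Crem (0.036) and Sik1 (0.018). Of the 20 genes named from lists, Adora1 (-0.14 without NECA replicate 1) and Adora2a (0.012 without DMSO replicate 1) changed sign.

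With 1 library left out, the log2 fold changes ran from -0.18 to 0.25 for Fos, -0.50 to 0.56 for Fosb, -0.22 to 0.0085 for Junb, -0.455 to 0.14 for Nr4a1, -0.23 to 0.037 for Crem, -0.16 to 0.11 for Sik1, -0.43 to 0.11 for Atf3, -0.14 to 0.60 for Adora1 and -0.16 to 0.012 for Adora2a. Of the list genes that kept their sign, Adora2b (-0.37), Rgs1 (-0.53), Crtc2 (-0.23), Hsph1 (0.14) and Hsp90aa1 (0.15) moved by over 1.5 times with library weights.

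Libraries of the same number did not deviate together (correlations of 0.0378, -0.19 and -0.0481), and those of unlike number ran from -0.344 to 0.263. With 3 libraries a group, these values cannot settle whether the numbers pair the samples. The block called 0 genes, as did the fit without it. Depth limits Fosb most, at 12 to 33 counts per library. With 3 libraries a group, an interval of 0.492 to 2.77 for Fosb and 0.344 to 1.05 for Egr1 leaves sizeable differences within reach.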
